A study of Homo sapiens with 12 samples.

Results

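Interferon-stimulated effector genes were examined in SK-UT-1 cells, an established line from a human uterine leiomyosarcoma, which is a malignant tumour of uterine smooth muscle. The list holds 46 genes that were chosen by name, and the values that chose them were the differences of each BET inhibitor from vehicle in these same libraries. Of the 46, 45 have values among the 22784 gene symbols of the table, 44 passed the filter on low values among 14839 genes tested, and 1 further gene of the list was not analysed here. The changes against vehicle are therefore given as a description. Adjusted p-values from the fit over all genes serve only to say which members pass a call, and they are no independent test of the list. Cells received the vehicle DMSO, 5 µM JQ1 or 5 µM I-BET 762 for 48 h, and RNA-seq was performed on total RNA. Values were analysed for 3 DMSO libraries (replicates 13 to 15), 4 JQ1 libraries (replicates 17 to 20) and 3 I-BET 762 libraries (replicates 21 to 23). DMSO replicate 16 and I-BET 762 replicate 24 were not analysed here. All libraries come from this line alone, the labels name no added interferon, and they do not say whether replicates were separate cultures, so p-values measure only the spread between these libraries.

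JQ1 and I-BET 762 compete with acetylated histone tails for the bromodomains of the BET proteins, which read acetylated chromatin. JQ1 is built on a thienodiazepine ring and I-BET 762 on a benzodiazepine ring. Interferons are secreted antiviral cytokines whose receptors act through JAK kinases. Type I and type III interferons act mainly through the interferon-stimulated response element in the promoters of their target genes, and interferon gamma mainly through the gamma-activated site. The genes they switch on encode proteins that sense, degrade or trap viral RNA, block viral entry and budding, and conjugate the ubiquitin-like protein ISG15, and many tumour lines express some of them with no virus present.

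Promoter sequences are shown for members at the extremes of the change, since a match to the response element was found among genes that fell and among genes that did not. They are RefSeq sequences on GRCh38.p14 from 250 bases before to 50 bases after the start site, written 5′ to 3′ on the strand of the gene. Capitals mark each match to the response element, searched as GAAANNGAAA on either strand. IFI44L (chr1:78620198-78620497) and MX1 (chr21:41420308-41420607), both on the plus strand, are the members with a match among the 5 largest falls. MX2, also among these 5, had no RefSeq promoter here and was not searched.
IFI44L: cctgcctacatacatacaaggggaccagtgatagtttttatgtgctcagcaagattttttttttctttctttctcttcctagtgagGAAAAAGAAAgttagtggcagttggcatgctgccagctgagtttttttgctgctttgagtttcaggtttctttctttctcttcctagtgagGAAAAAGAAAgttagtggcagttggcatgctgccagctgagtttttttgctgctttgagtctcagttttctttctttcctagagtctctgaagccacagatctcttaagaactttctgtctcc
MX1: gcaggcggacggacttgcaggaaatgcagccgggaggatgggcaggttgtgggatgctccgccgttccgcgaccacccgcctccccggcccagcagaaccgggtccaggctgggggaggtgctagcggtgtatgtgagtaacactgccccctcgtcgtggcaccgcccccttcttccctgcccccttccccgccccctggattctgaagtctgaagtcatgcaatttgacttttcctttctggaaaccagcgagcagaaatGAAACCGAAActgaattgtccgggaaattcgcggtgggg
XAF1 (chr17:6755796-6756095, plus strand) fell the furthest by the smaller of its changes and has no match, and its sequence is shown for that reason.
XAF1: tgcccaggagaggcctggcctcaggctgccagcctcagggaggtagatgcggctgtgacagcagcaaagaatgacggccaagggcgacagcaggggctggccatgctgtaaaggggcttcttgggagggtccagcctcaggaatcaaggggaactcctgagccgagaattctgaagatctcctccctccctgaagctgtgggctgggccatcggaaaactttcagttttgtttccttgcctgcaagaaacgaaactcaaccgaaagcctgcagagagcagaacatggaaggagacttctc
HERC5 (chr4:88456869-88457168) and IFIT5 (chr10:89414318-89414617), on the plus strand, have 3 matches each and were not called in either direction with either inhibitor. IFIT1 (chr10:89392373-89392672, plus strand) lies 8080 bases from IFIT5 in the same gene cluster and fell. These last 3 and XAF1 were picked after their values had been seen.
HERC5: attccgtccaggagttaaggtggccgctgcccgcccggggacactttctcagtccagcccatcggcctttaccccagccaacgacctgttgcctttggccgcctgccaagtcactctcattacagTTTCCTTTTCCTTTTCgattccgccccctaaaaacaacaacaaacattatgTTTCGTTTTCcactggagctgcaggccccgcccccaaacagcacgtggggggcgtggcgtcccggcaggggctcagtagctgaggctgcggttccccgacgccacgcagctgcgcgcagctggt
IFIT5: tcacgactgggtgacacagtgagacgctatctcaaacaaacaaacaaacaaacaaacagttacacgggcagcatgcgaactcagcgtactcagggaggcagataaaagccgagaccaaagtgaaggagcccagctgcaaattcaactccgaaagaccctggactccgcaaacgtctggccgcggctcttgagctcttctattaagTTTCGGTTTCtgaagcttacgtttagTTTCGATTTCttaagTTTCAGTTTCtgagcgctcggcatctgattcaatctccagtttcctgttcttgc
IFIT1: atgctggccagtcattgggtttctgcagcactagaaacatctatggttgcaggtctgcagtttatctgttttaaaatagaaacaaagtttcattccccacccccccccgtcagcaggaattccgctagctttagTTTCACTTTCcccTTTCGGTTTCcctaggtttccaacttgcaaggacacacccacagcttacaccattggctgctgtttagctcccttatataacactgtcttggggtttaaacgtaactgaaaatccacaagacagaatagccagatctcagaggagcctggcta
In IFI44L the pair of matches has the same letters and the same flanking sequence, at 164 and 73 bases before the start. The match of MX1 lies at 12 to 21 bases after the start of the RefSeq transcript.

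Reads on genes ranged from 35564586 to 39658989 over the 10 libraries, and 3 reads, the limit that a count of 0 allows, were worth 2.73 to 3.30 normalized counts. This limit covers counting error only. Values below are normalized counts, reads divided by a scaling factor for each library. Among JQ1 libraries, replicates 17 and 19 lay nearest to each other, with a chi-square per gene of 5.38, while the other JQ1 pairs ran from 12.6 to 22.1. DMSO pairs ran from 2.77 to 7.32 and I-BET 762 pairs from 3.34 to 5.21, so JQ1 libraries spread more than those of the other groups. HEXIM1, a usual marker of BET inhibition, rose by 1.53 on the log2 scale with JQ1 and by 1.05 with I-BET 762.

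In DMSO, for which the labels name no added interferon, the effectors were expressed. Per kilobase of exon, the median of the 45 members was 446 normalized counts, against 161 over 14394 tested genes with a length, and 35 members lay above the latter. The DMSO libraries were part of the values that chose the members, so this level is only a description. ISG15, the ubiquitin-like modifier, stood first with 8371 normalized counts per kilobase (8284 to 8499 over 3 libraries), at the 99.3 percentile of tested genes. LGALS3BP, a secreted galectin-binding glycoprotein, followed at 3990, IFI6, a small membrane protein that opposes apoptosis, at 3113, IFITM2 at 2661 and IFITM3 at 2450. The lowest were TRIM22 at 28.0, MX2 at 15.9, GBP2 at 13.0 and RTP4, a receptor chaperone, at 8.35 normalized counts per kilobase. In this order 16 of 44 neighbouring pairs had overlapping DMSO ranges, among them MX1 and IFI44L, both at 235, and XAF1 at 193 with OAS2 at 186. MX2 overlapped with GBP2, and GBP2 with RTP4, while TRIM22 lay above all 3.

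With JQ1, 37 of 44 members (84.1%) were called lower, a call being an adjusted p under 0.05 and a change over 1.5-fold, where 22.8% of all tested genes were called lower. With I-BET 762 the count was also 37 of 44, where 17.9% of all genes were called lower. Members called higher numbered 0 with either inhibitor, against 13.3% of all genes with JQ1 and 8.96% with I-BET 762, and 0 members were higher at an unadjusted p under 0.05 in limma or called higher by limma-voom on the recovered reads. The median change was −2.03 on the log2 scale with JQ1 (−4.85 to 0.10), beside 0.01 over all genes, and −1.82 with I-BET 762 (−3.74 to 0.07), beside −0.00 over all genes. Because members were selected on these contrasts, nothing is read from these counts beyond the description. All JQ1 libraries lay below all DMSO libraries in 39 of 44 members, as they did in 34.3% of all genes. All I-BET 762 libraries did so in 42 of 44 members, as they did in 36.2% of all genes. The comparisons of both inhibitors use the same DMSO libraries.

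**Figure D1:**
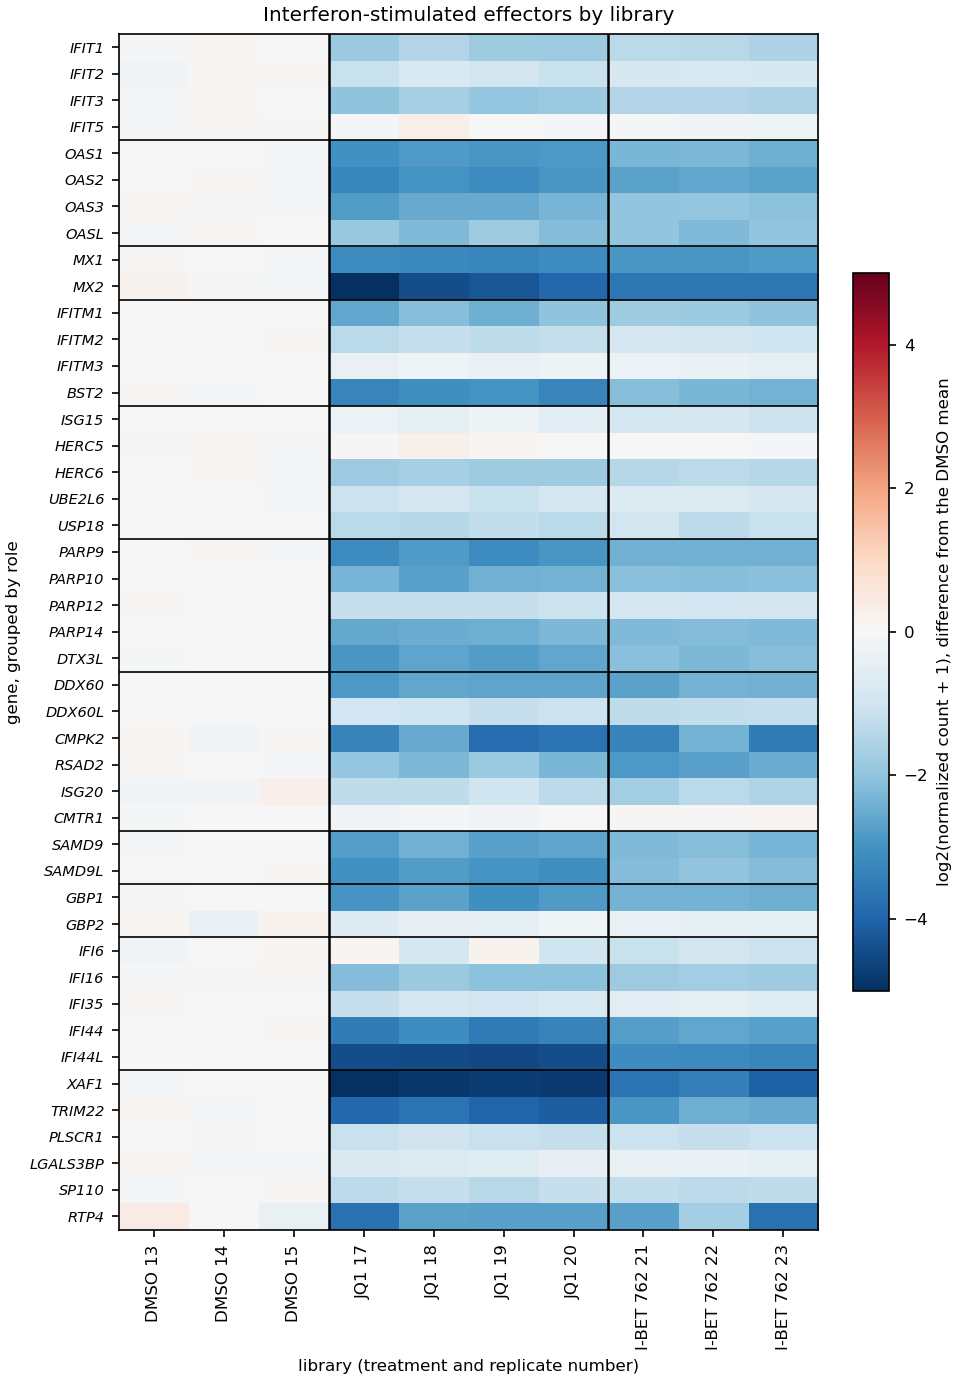
Each row is an effector gene, grouped by role, and each column is a library. Colour gives log2(normalized count + 1) minus the DMSO mean, blue for lower and red for higher. Nearly every row is blue in the 7 inhibitor libraries, while IFIT5, HERC5 and CMTR1 stay near white.

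IFI35 and LGALS3BP were called with JQ1 but not with I-BET 762, and ISG15 and IFI6 with I-BET 762 but not with JQ1. IFIT5, IFITM3, HERC5, CMTR1 and GBP2 were called with neither. With libraries rescaled to equal totals, IFI35 also passed the call with I-BET 762 (−0.62 on the log2 scale), and IFI6 (−0.60) and GBP2 (−0.63) passed it with JQ1. With JQ1, 33 members were called lower by over 2-fold, where 14.6% of all genes were, 23 by over 4-fold (5.25% of all genes) and 10 by over 8-fold (1.60%). With I-BET 762 these counts were 32 (10.6% of all genes), 20 (3.11%) and 4 (0.735%). The median over members, taken in each library against the DMSO mean, lay between −2.04 and −1.89 on the log2 scale for JQ1 replicates and between −1.87 and −1.79 for I-BET 762 replicates, and these ranges did not overlap.

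**Figure D2:**
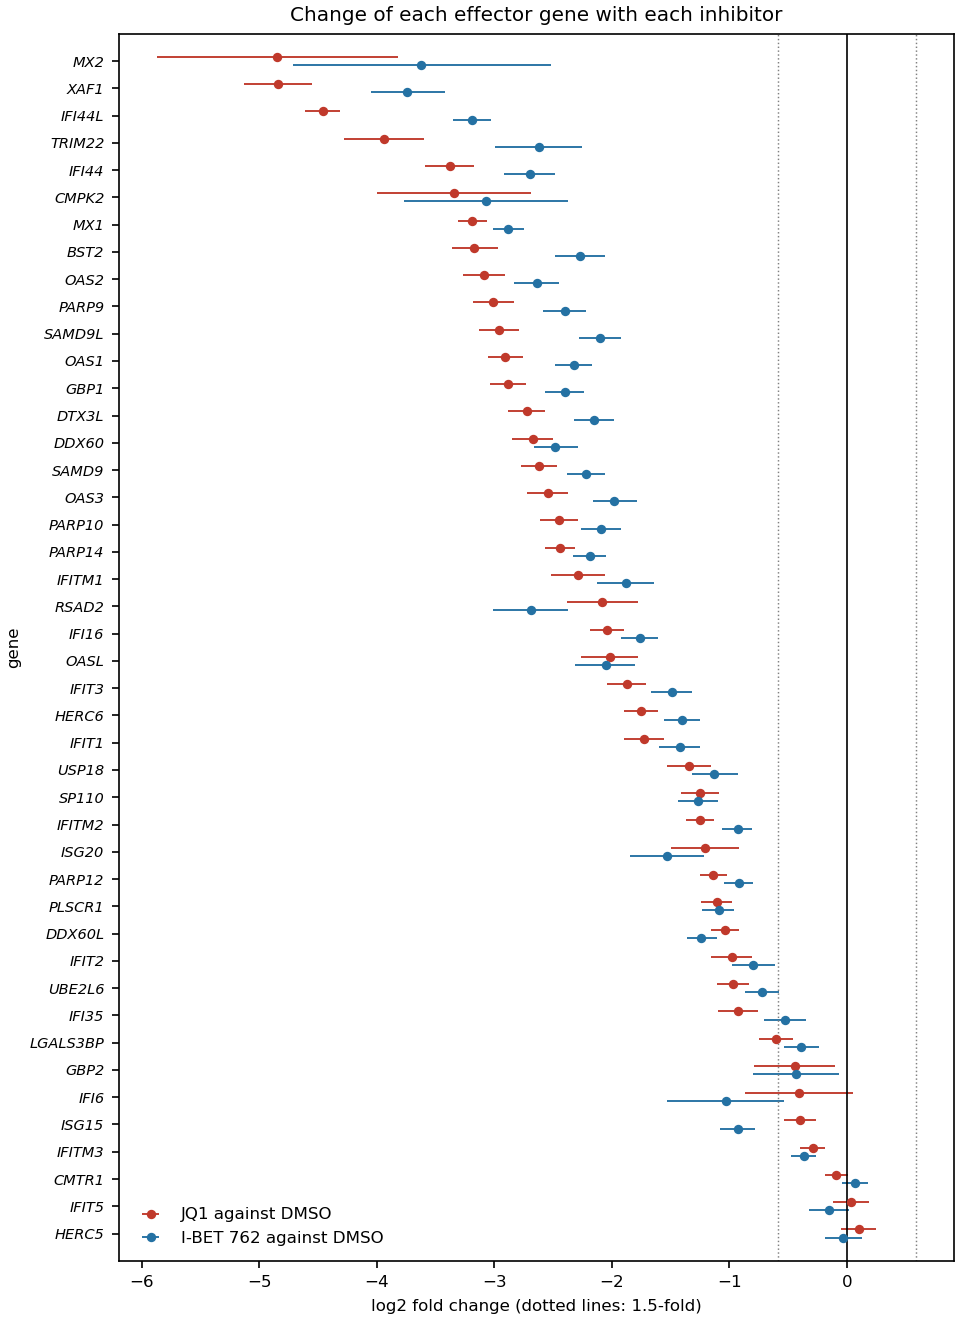
The log2 fold change of each of the 44 tested members against DMSO is plotted for JQ1 (red) and I-BET 762 (blue), with bars for the 95% interval of the fit. Members run from MX2 at −4.85 (−4.20 without JQ1 replicate 17) and XAF1 at −4.84 with JQ1 to IFIT5 at 0.03 and HERC5 at 0.10, and most red points lie to the left of the blue ones.

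The 5 members with the deepest fall, ranked by the smaller of the changes with each inhibitor, were XAF1, MX2, IFI44L, CMPK2 and MX1. XAF1 encodes an antagonist of the apoptosis inhibitor XIAP. It had 1239, 1292 and 1299 normalized counts in DMSO, 38.5, 43.5, 47.0 and 45.6 with JQ1, and 97.4, 117 and 74.8 with I-BET 762. All 7 inhibitor libraries were far below DMSO, and JQ1 libraries were below I-BET 762 libraries. XAF1 was at 3.42% of DMSO with JQ1 and 7.56% with I-BET 762, log2 changes of −4.84 ± 0.14 and −3.74 ± 0.15 (SE). An antisense transcript shares 38.3% of its exon bases, and whether counting used strand is not given in the sources used here.

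MX1 and MX2 are dynamin-like GTPases, of which MX1 blocks influenza virus and MX2 the nuclear entry of HIV. MX2 had 263, 215 and 214 normalized counts in DMSO, 1.10, 9.79, 11.0 and 14.2 with JQ1, and 17.7, 18.0 and 17.7 with I-BET 762. The DMSO level was low, and JQ1 replicate 17 was at about 1 read. Its log2 changes were −4.85 ± 0.48 and −3.62 ± 0.52 (SE). The fit uses the same spread for all 3 groups, so the SE with I-BET 762 also holds the spread of the JQ1 libraries. Leaving out JQ1 replicate 17 left the change with I-BET 762 at −3.62. Without JQ1 replicate 17 the change of MX2 with JQ1 was −4.20, a smaller fall than those of XAF1 (−4.78) and IFI44L (−4.47) in the same fit. MX1, 10626 bases away on chromosome 21, had 4353, 4316 and 4024 normalized counts in DMSO, 472, 458, 445 and 478 with JQ1, and 560, 557 and 601 with I-BET 762. The 3 groups of MX1 did not overlap, at 11.0% of DMSO with JQ1 and 13.5% with I-BET 762, and the log2 changes were −3.19 ± 0.06 and −2.88 ± 0.06 (SE).

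IFI44L and IFI44 are neighbours on chromosome 1 that encode related antiviral proteins. IFI44L had 2752, 2668 and 2760 normalized counts in DMSO, 126, 123, 119 and 125 with JQ1, and 313, 302 and 282 with I-BET 762. The JQ1 libraries were tight (SD 3.14, n = 4) and lay under the I-BET 762 libraries (SD 15.9, n = 3). IFI44L was at 4.52% of DMSO with JQ1 and 11.0% with I-BET 762. IFI44 had 1868, 1843 and 1954 normalized counts in DMSO, 165, 217, 160 and 186 with JQ1, and 278, 309 and 283 with I-BET 762. Its log2 changes, −3.38 and −2.70, were smaller than those of IFI44L, −4.46 and −3.19.

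CMPK2, a mitochondrial nucleotide kinase, and RSAD2 (viperin), which makes a chain-terminating nucleotide, overlap head to head on chromosome 2 and share 351 exon bases. CMPK2 had 223, 191 and 217 normalized counts in DMSO, 19.8, 35.9, 14.0 and 15.2 with JQ1, and 19.7, 40.1 and 17.7 with I-BET 762. JQ1 replicate 18 and I-BET 762 replicate 22 were the highest of their groups, and the inhibitors overlapped. RSAD2 had 353, 331 and 325 normalized counts in DMSO, 86.8, 70.7, 92.0 and 68.0 with JQ1, and 45.3, 50.1 and 59.1 with I-BET 762. For RSAD2 the I-BET 762 libraries were the lowest, the opposite order to most members.

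Among the IFIT proteins, which bind foreign RNA ends, 3 of 4 were called lower with each inhibitor. Over all tested genes, 22.8% were called lower with JQ1 and 17.9% with I-BET 762. This count and those of the roles that follow are a description, to be read beside these shares. IFIT1, which captures RNA whose cap lacks methylation, was at 30.3% of DMSO with JQ1 and 37.2% with I-BET 762, from a DMSO mean of 10010 ± 632 normalized counts (SD, n = 3). Its partner IFIT3 was at 27.4% and 35.5%, and IFIT2 at 50.8% and 57.4%. IFIT5, which binds RNA with a terminal triphosphate, had 2884, 3168 and 3186 normalized counts in DMSO, 2855, 3705, 3107 and 2982 with JQ1, and 2867, 2776 and 2678 with I-BET 762. The JQ1 libraries of IFIT5 spanned the DMSO libraries, and the I-BET 762 libraries lay just below them, at 90.1% of the DMSO mean.

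All 4 genes of the OAS family, sensors of double-stranded RNA, were called lower with both inhibitors. OAS1 was at 13.3% of DMSO with JQ1 and 20.0% with I-BET 762, OAS2 at 11.8% and 16.0%, and OAS3 at 17.2% and 25.3%. These 3 genes lie in a row on chromosome 12 and synthesize the oligoadenylate that activates RNase L. OASL, an inactive relative elsewhere on that chromosome, was at 24.8% and 24.0%, and its JQ1 and I-BET 762 libraries overlapped.

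Among membrane restriction factors, 3 of 4 were called lower with each inhibitor. BST2 (tetherin), which holds budding virions at the cell surface, had 1592, 1461 and 1536 normalized counts in DMSO, 154, 180, 191 and 156 with JQ1, and 347, 311 and 294 with I-BET 762. BST2 thus stood at 11.1% of DMSO with JQ1 and 20.8% with I-BET 762, without overlap between any groups. The IFITM proteins block fusion of virus and cell membranes. IFITM1 was at 20.7% and 27.1% of DMSO, IFITM2 at 42.2% and 52.4%, and IFITM3, which was not called, at 81.6% and 77.4%. These 3 genes lie within the same cluster on chromosome 11 and share 5.75% to 10.8% of their 75-base stretches of exon with each other, so reads could be divided between them. An unnamed protein-coding gene on the same strand shares 21.1% of the exon bases of IFITM1.

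The ISG15 pathway split. ISG15 had 7182, 7368 and 7222 normalized counts in DMSO, 5880, 5332, 6066 and 4851 with JQ1, and 3904, 3940 and 3569 with I-BET 762. All its inhibitor libraries were below DMSO, at 76.2% with JQ1, under the fold threshold, and at 52.4% with I-BET 762. UBE2L6, the conjugating enzyme for ISG15, was at 51.0% and 60.5% of DMSO, and USP18, the protease that removes ISG15, at 39.3% and 46.0%. USP18 shares 9.06% of its exon stretches with USP41, and reads from them could be divided. HERC5, the main ligase for ISG15, had 834, 923 and 842 normalized counts in DMSO, 890, 1034, 930 and 859 with JQ1, and 867, 871 and 809 with I-BET 762. The 3 groups of HERC5 overlapped, with means of 107% and 98.0% of DMSO. HERC6, 14021 bases away on chromosome 4 on the same strand, was at 29.6% with JQ1 and 37.8% with I-BET 762.

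Of the ADP-ribosyltransferases and the partner of PARP9, 5 of 5 were called lower with each inhibitor. PARP9 and DTX3L, which form a complex and overlap head to head on chromosome 3, were at 12.5% and 15.2% of DMSO with JQ1 and at 18.9% and 22.5% with I-BET 762. PARP14 was at 18.5% and 21.9%, PARP10 at 18.4% and 23.4%, and PARP12 at 45.4% and 52.7%. DDX60, a helicase-like cofactor of RNA sensing, was at 15.7% and 18.0%, while its neighbour and relative DDX60L was at 48.7% and 42.4%. ISG20, an exonuclease, was at 42.7% and 34.2%. CMTR1, the cap methyltransferase, was not called, at 94.0% with JQ1 and 105% with I-BET 762.

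SAMD9 and SAMD9L, neighbours on chromosome 7 that restrict poxviruses, were both called lower with each inhibitor. SAMD9L had 2173, 2134 and 2255 normalized counts in DMSO, 265, 316, 281 and 261 with JQ1, and 487, 561 and 481 with I-BET 762. SAMD9 was at 16.3% and 21.5% of DMSO. GBP1, a GTPase that coats pathogens and their vacuoles, was at 13.6% and 18.9%. GBP2 lies next to GBP1 on chromosome 1, was expressed at 93.7 ± 17.4 normalized counts in DMSO (SD, n = 3), and was not called, at 72.8% and 72.9%. Without DMSO replicate 14, the lowest DMSO library for GBP2 at 74.0, its log2 changes passed the call with both inhibitors, at −0.60 and −0.59.

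TRIM22, a ubiquitin ligase with antiviral activity, had 371, 341 and 342 normalized counts in DMSO, 22.0, 26.1, 21.0 and 19.3 with JQ1, and 46.2, 63.2 and 61.0 with I-BET 762. Its 3 groups were far apart, at 6.29% of DMSO with JQ1 and 16.2% with I-BET 762. IFI16, a DNA sensor, was at 24.3% and 29.4%. PLSCR1, a phospholipid scramblase that limits viral entry, was at 46.3% and 46.9%, and the nuclear body protein SP110 at 42.1% and 41.5%. IFI35 was at 52.6% and 69.4%. LGALS3BP was at 66.0% and 76.4%, and its call with JQ1 was lost without JQ1 replicate 17 (−0.56 on the log2 scale), without JQ1 replicate 18 (−0.58) or without DMSO replicate 13 (−0.55). RTP4 was not tested, with 9.10 to 16.5 normalized counts in DMSO, at most 1 read in each JQ1 library and at most 3 reads in each I-BET 762 library. The DMSO mean of RTP4, 12.5 normalized counts, was 3.80-fold the level of 3 reads in the JQ1 libraries and 4.16-fold that in the I-BET 762 libraries. These folds leave out the spread of the DMSO libraries, and a count of 3 allows a level above 3 reads, so they are not strict lower bounds.

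IFI6 was uneven among the JQ1 libraries. It had 2660, 2981 and 3100 normalized counts in DMSO, 3087, 1578, 3258 and 1440 with JQ1, and 1361, 1519 and 1385 with I-BET 762. JQ1 replicates 17 and 19 lay within or above the DMSO range, and replicates 18 and 20 lay near the I-BET 762 libraries. Without JQ1 replicate 19 its change with JQ1 passed the call, at −0.60 on the log2 scale. JQ1 replicates 17 and 19 were the higher pair in 5 of 44 members, IFI6, ISG15, RSAD2, OASL and USP18, and the lower pair in 19, among them IFITM1, OAS2, PARP9 and IFI35. The share of all genes with either order was not computed, so nothing is read from these counts. The transcript LINC02574 shares 23.1% of the exon bases of IFI6 on the same strand. Whether that overlap bears on the values of IFI6 was not tested.

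**Figure D3:**
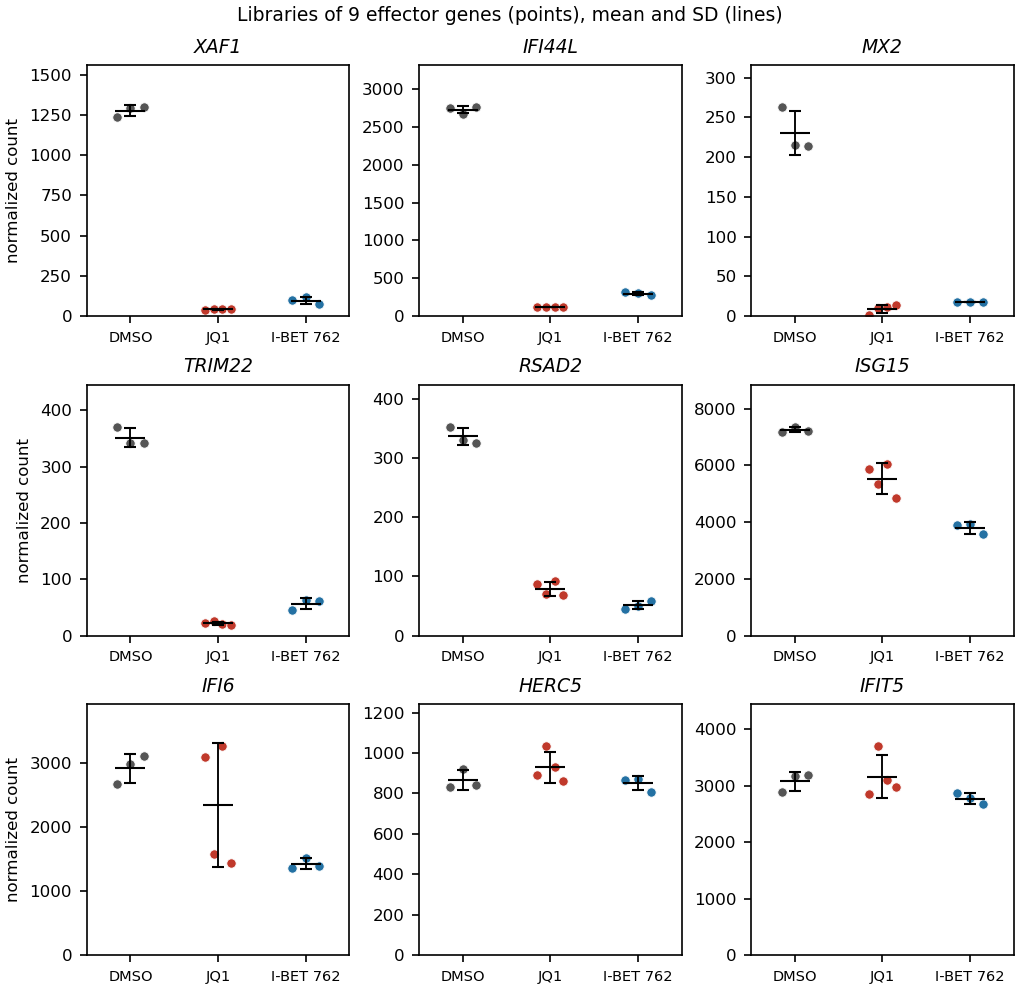
Normalized counts of 9 effector genes are plotted on linear axes from 0, with a point for each library, a horizontal line for the group mean and bars for the SD. XAF1, IFI44L, MX2 and TRIM22 drop close to 0, RSAD2 and ISG15 are lowest with I-BET 762, IFI6 splits among the JQ1 libraries, and HERC5 and IFIT5 stay level.

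Neighbouring members did not always move together. HERC6 and HERC5 had log2 changes of −1.75 and 0.10 with JQ1, IFIT1 and IFIT5 of −1.73 and 0.03, GBP1 and GBP2 of −2.88 and −0.44, and IFITM1 and IFITM3 of −2.29 and −0.29. With I-BET 762 the values were −1.40 and −0.03 for HERC6 and HERC5, and −1.42 and −0.15 for IFIT1 and IFIT5. Other neighbours were close, among them DTX3L and PARP9 at −2.72 and −3.01 with JQ1, and SAMD9 and SAMD9L at −2.62 and −2.96.

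The inhibitors were then compared directly, at the same dose and time. This contrast is the difference of the changes against DMSO on which the members were chosen, so its counts over the list are a description, and each adjusted p is that of a single gene in the fit over all genes. Relative to I-BET 762, JQ1 libraries were lower for most effectors: the median difference over 44 members was −0.29 on the log2 scale (−1.32 to 0.62), beside −0.00 over all genes. By limma with Benjamini-Hochberg adjustment over all tested genes, 7 members were called lower with JQ1, where 3.59% of all genes were, namely TRIM22, IFI44L, XAF1, BST2, SAMD9L, IFI44 and PARP9. RSAD2 and IFI6, 2 of 44 members, were called higher with JQ1, where 1.73% of all genes were. A further 20 members were lower and 2 were higher with an adjusted p under 0.05 but under 1.5-fold. With no fold threshold, 27 members were thus lower, where 14.0% of all genes were, and 4 of 44 (9.09%) were higher, where 13.3% of all genes were. Rescaling the libraries to equal totals or to equal upper quartiles gave 10 members lower and 0 higher in place of 7 and 2. Without JQ1 replicate 20, 14 members were called in either direction in place of 9.

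TRIM22 had the largest difference, −1.32 (95% interval −1.66 to −0.98, adjusted p = 3.2e-05 by limma), followed by IFI44L at −1.27 (−1.42 to −1.12, adjusted p = 4.72e-08). XAF1 differed by −1.11 (−1.40 to −0.81, adjusted p = 3.58e-05) and BST2 by −0.90 (−1.09 to −0.70, adjusted p = 6.71e-06). SAMD9L differed by −0.86 (−1.03 to −0.69, adjusted p = 2.58e-06) and IFI44 by −0.68 (−0.88 to −0.47, adjusted p = 0.000117). In each of these 6 genes all 4 JQ1 libraries lay below all 3 I-BET 762 libraries. The 6 were picked as the largest called differences, so this order is only a description. It held in 26 of 44 members and in 16.3% of all genes. PARP9, at −0.61 with an adjusted p of 6.98e-05, fell under the fold threshold (−0.56) without JQ1 replicate 17 or without replicate 19.

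ISG15 went the other way, higher with JQ1 by 0.54 (0.40 to 0.68, adjusted p = 3.48e-05), without overlap between the inhibitors but under the fold threshold. Among the alternatives it passed the threshold only without JQ1 replicate 20, at 0.60. RSAD2 was higher with JQ1 by 0.61 (0.31 to 0.91, adjusted p = 0.00523), and it was under the fold threshold without JQ1 replicate 17 (0.57), JQ1 replicate 19 (0.54) or I-BET 762 replicate 21 (0.52), and in 6 of 19 alternatives in all. IFI6 was higher with JQ1 by 0.62 (0.16 to 1.08, adjusted p = 0.0442), and its groups overlapped. The call of IFI6 was lost in 13 of 19 alternatives, among them limma-voom, both rescalings and leaving out any 1 of the I-BET 762 libraries, and its adjusted p ranged from 0.00519 to 0.153. Without JQ1 replicate 17 or 19, it was 0.123 or 0.122. DDX60L, at 0.20, had an adjusted p of 0.0143.

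For 13 members the direct difference missed an adjusted p of 0.05, which does not show that the inhibitors acted alike on them. For 10 of the 13, the 95% interval lay within 1.5-fold in either direction, among them PLSCR1 (−0.14 to 0.11), SP110 (−0.14 to 0.18), OASL (−0.20 to 0.27) and HERC5 (−0.02 to 0.28). MX2, CMPK2 and ISG20 had wider intervals, of −2.26 to −0.21, −0.93 to 0.38 and 0.03 to 0.61. MX2, at −1.23, had an adjusted p of 0.0709, within a range of 0.0274 to 0.169 over all alternatives. Without JQ1 replicate 17 its difference shrank to −0.59, with an adjusted p of 0.0554, and it was −1.54 (0.0274) without JQ1 replicate 20 and −1.37 (0.0479) without JQ1 replicate 18.

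**Figure D4:**
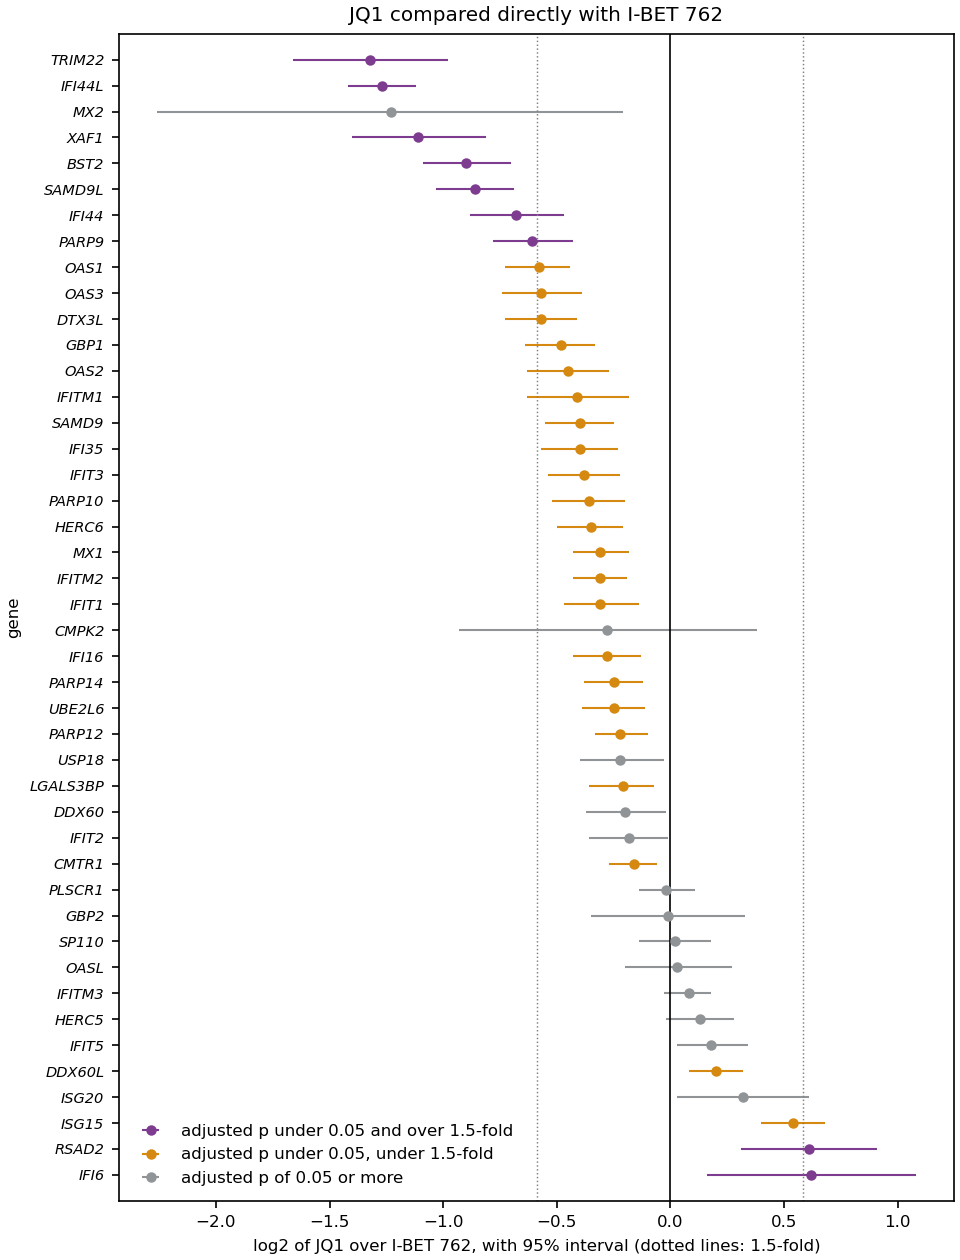
The log2 difference of JQ1 from I-BET 762 is plotted for 44 members, with bars for the 95% interval and colours for the outcome of the test. Points run from TRIM22 at −1.32 to IFI6 at 0.62, most lie left of 0, and MX2 has the widest bar.

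What the promoters share was examined next. Interferons act on their target genes mainly through the response element and the gamma-activated site. The shares below are therefore not independent of the choice of interferon-stimulated genes by name, and they are a description. RefSeq promoters were found for 36 of the 45 members. Those not found, and so not searched, were GBP2, PARP10, IFIT2, IFITM2, TRIM22, OAS2, OASL, MX2 and USP18. The response element matched in 24 of 36 (66.7%), against 3.57% of all 35116 promoters of the same length. The gamma-activated site, searched as TTCNNNGAA on either strand, matched in 7 of 36 (19.4%), against 7.66%. The motifs may overlap each other, as in BST2 and IFITM1. Searching only the 250 bases before the start gave 61.1% against 3.02% for the response element and 16.7% against 6.57% for the gamma-activated site. Allowing 1 to 3 bases between the half-sites gave 80.6% against 8.68%, and the 5 members added were OAS1, RSAD2, IFI35, XAF1 and SP110. A match is a description of letters, and no match says only that these letters are absent from this window.

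The changes of members with and without a match are given as a description, since the members were chosen on these changes and nothing is read from the difference. With JQ1, the 23 tested members with a response element had a median log2 change of −1.87 and the 12 without it −2.06. With I-BET 762 these medians were −1.53 and −1.93. Of the 12, 5 have a match once 1 or 3 bases are allowed between the half-sites. HERC5 and IFIT5 carry 3 matches each and had changes of 0.10 and 0.03 with JQ1, while IFI6, with 3 matches, had −0.41. CMPK2, PARP9 and SAMD9L have no match with 1 to 3 bases between the half-sites and had −3.34, −3.01 and −2.96. Among tested genes outside the list, 275 had a response element, with a median of −0.09 with JQ1, and 30.2% were called lower. Of 10934 without it, 22.2% were called lower, with a median of 0.01. With I-BET 762 these shares were 25.5% and 17.1%.

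**Figure D5:**
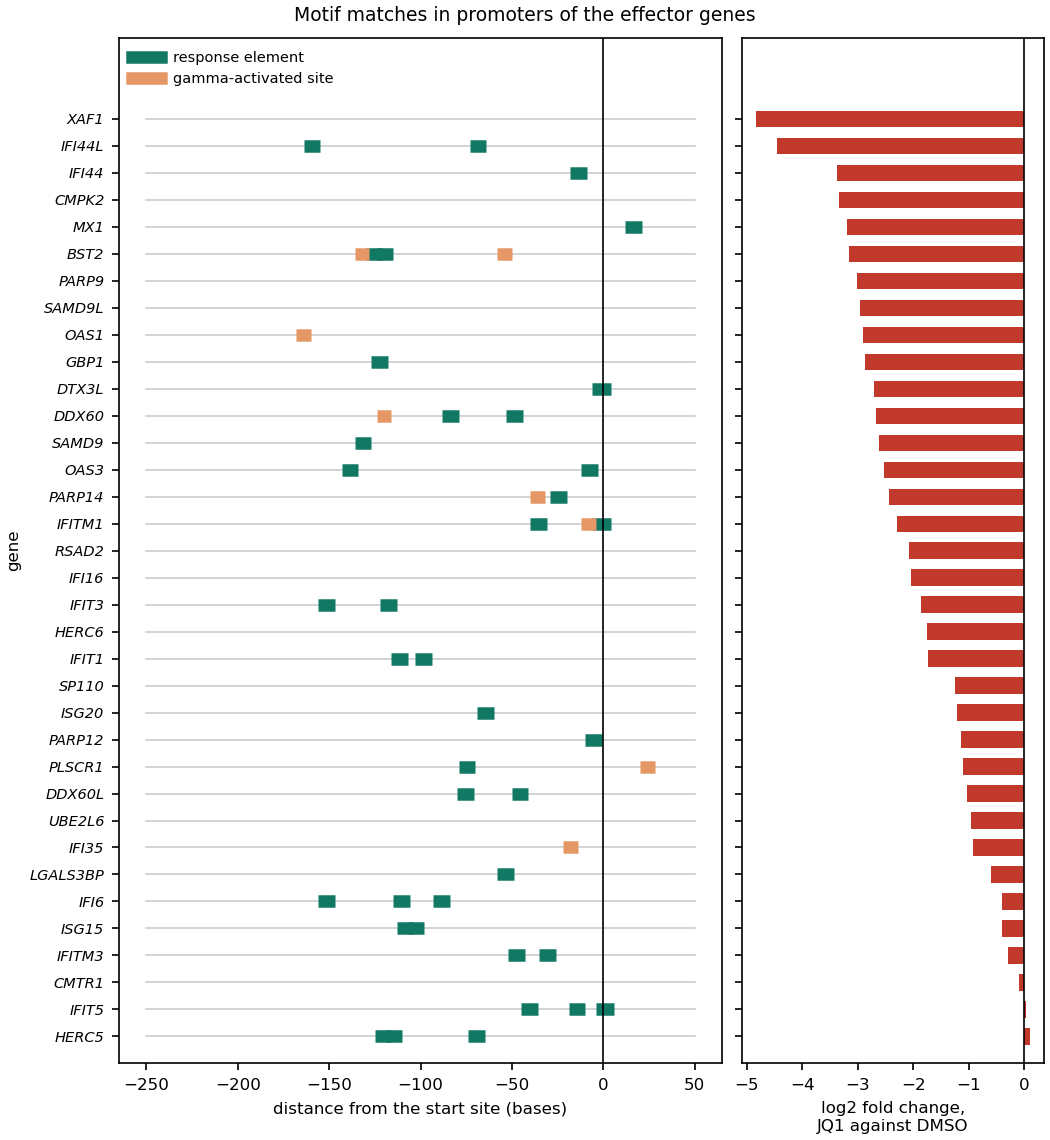
Each line is the promoter of a tested member, from 250 bases before to 50 bases after the start site at 0, with green blocks for response elements and orange blocks for gamma-activated sites. Bars give the log2 fold change with JQ1, from XAF1 at −4.84 to HERC5 at 0.10. Genes with and without blocks occur from top to bottom.

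Other interferon genes were counted from lists drawn up by textbook role, with earlier results of these data known. Among all tested genes, 22.8% were called lower and 13.3% higher with JQ1, and 17.9% and 8.96% with I-BET 762. The counts of this list and of those that follow are to be read beside these shares. Among nucleic acid sensors and adaptors, which start the interferon response, 8 of 11 tested were called lower and 0 higher with each inhibitor by limma and by limma-voom, and 1 was higher at an unadjusted p under 0.05. The 3 with the largest mean change were TLR3, the endosomal sensor of double-stranded RNA (−3.84 with JQ1 and −2.88 with I-BET 762 on the log2 scale), STING1, the adaptor for cytosolic DNA sensing (−3.16 and −2.82), and IFIH1, the sensor of long double-stranded RNA (−2.40 and −1.71). Among 27 other interferon-inducible effectors tested, 15 were called lower and 0 higher with each inhibitor by both fits, with 1 higher at an unadjusted p under 0.05, led by GBP3 (−2.82 and −2.24), IFIH1, which is in both lists, and SHFL (−2.09 and −1.58).

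Among 7 tested ligands and receptors, 2 were called lower with JQ1 and 1 with I-BET 762, and 2 were called higher with each. Over all tested genes, 22.8% and 17.9% were called lower and 13.3% and 8.96% higher with JQ1 and I-BET 762. IFNLR1, the receptor chain for type III interferon, fell by 2.23 with JQ1 and by 1.61 with I-BET 762. IFNGR2 was called lower with JQ1 alone (−1.14 and −0.94), and its inhibitor and DMSO libraries overlapped. IFNAR2 (0.83 and 0.88) and IFNGR1 (0.71 and 0.61), receptor chains for type I interferon and interferon gamma, were called higher. Among the ligands, IFNE was detected in every library, with 33.7 to 61.0 normalized counts in DMSO, 34.1 to 54.4 with JQ1 and 33.1 to 42.3 with I-BET 762. It was not called, at −0.15 with JQ1 and −0.23 with I-BET 762 on the log2 scale. IFNB1 and IFNL2 had at most 3 reads in every library of every group, and IFNL1 and IFNL3 at most 4 reads.

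In the JAK-STAT and IRF list, 15 genes were tested. With JQ1, 3 were called lower and 3 higher, and with I-BET 762, 3 lower and 2 higher. These counts lie near the shares of all genes called, and nothing is read from them. The 3 with the largest mean change were SOCS1, a feedback inhibitor of JAK kinases (1.66 with JQ1 and 0.89 with I-BET 762), IRF5 (−1.22 and −1.02) and SOCS3 (−0.81 and −1.10). IRF9 and STAT2, which belong to a factor that binds the response element, were looked up for that role after their values were known. IRF9 was called lower (−1.20 and −0.61). STAT2 was not called, at −0.34 with JQ1 and −0.26 with I-BET 762.

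In the antigen processing list, 5 of 6 tested genes were called lower and 1 higher with JQ1, and 4 lower and 0 higher with I-BET 762 by limma and by limma-voom, where B2M was higher at an unadjusted p under 0.05. ERAP2 and ERAP1, the peptide trimming enzymes, had −2.42 and −1.48 with JQ1 and −2.01 and −1.23 with I-BET 762, and PSMB10, a subunit of the immunoproteasome, had −1.37 and −1.10. TAP1 and PSMB9 had at most 3 reads in every library, so no change could be measured. Both lie in the major histocompatibility complex, for which the genome build has alternate contigs, and whether the authors' index held these is not given in the sources used here.

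Markers of other cells were read beside these results. Of 10 leukocyte markers, 7 were in the table and 2 were tested, and PTPRC and NKG7 were at 3 reads or fewer in every library. The summed level of the 7 was 51.9 to 72.6 normalized counts in DMSO, 42.4 to 53.8 with JQ1 and 23.6 to 41.1 with I-BET 762. Smooth muscle markers were detected, with a summed level of 20762 to 21349 in DMSO, 10828 to 11478 with JQ1 and 12129 to 12717 with I-BET 762. Of the 7 tested, 6 were called lower with JQ1, where 22.8% of all genes were, and 5 with I-BET 762, where 17.9% were. The part of this in the effectors' values was not tested. Fewer cells that express a gene and less RNA of it per cell cannot be told apart in these bulk samples.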

How the data were processed

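RNA-seq was performed by the authors on total RNA of SK-UT-1 cells. Per the labels, libraries were strand-specific. Reads were checked with FastQC 0.73, trimmed (Trimmomatic), mapped on hg38 by HISAT2 2.2.1, counted with featureCounts 2.0.3 on Gencode 41 genes and normalized with DESeq2, and the authors left out outlier samples. The strand setting of the counting is not given in the sources used here. Values as deposited are on a log2 scale, of the normalized count with 1 added. They were whole multiples of a constant step within a tolerance of 0.1 for 99.77% to 99.80% of values in each library, which gave the reads.

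Genes with a normalized count of at least 10 in at least 3 libraries were fitted on the log2 scale with limma 3.58.1 in R 4.3.3, with an intensity trend and all 10 libraries in the same model, and p-values were adjusted by Benjamini-Hochberg over 14839 genes. Standard errors and 95% intervals are from that fit, and percentages of DMSO are ratios of mean normalized counts. A call had an adjusted p under 0.05 and a change over 1.5-fold. The code was tested on simulated data. Replicates were compared, and 0 pairs were identical.

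The members and gene lists were chosen with earlier results of these data known. Values in every library are given for the 5 largest falls, for the 6 largest called differences between inhibitors and for genes picked after their values were seen. Gene lengths and overlaps are from Gencode 44, and promoters from RefSeq. Copied exons were sought as stretches of 75 bases. On 261 alternate contigs, at most 1.5% of a member's stretches were found (TRIM22). The alternatives were other constants, filters, scalings, fits, fold thresholds and leaving out each library. Tables were made in Python 3.11.15 with pandas 2.3.3 and numpy 2.4.6. Some single genes of the lists are not reported here.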

Additional observations from a re-analysis of the deposited data

Results flagged for a closer look

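In 4 of 45 members a JQ1 library stood apart from the other 3 by Dixon's criterion for 4 values, which flags about 1 in 20 groups by chance. IFIT1 had 3596 normalized counts in JQ1 replicate 18, where the nearest library had 2884. DDX60 had 336 in JQ1 replicate 17, where the nearest had 394. ISG20 had 125 in JQ1 replicate 19, where the nearest had 106. RTP4 had 0 in JQ1 replicate 17, where the nearest had 1.0, a difference of 1 read. Each of these libraries remained below all DMSO libraries of its gene. Groups of 3 libraries were not examined in this way.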

How the results depend on the processing

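Counts of members called against DMSO stayed between 35 and 39 for JQ1 and between 35 and 38 for I-BET 762 under the alternatives, fold thresholds aside. Members called between the inhibitors numbered 9, 6 to 14 when each library was left out in turn (14 without JQ1 replicate 20), 31 with no fold threshold and 3 with a 2-fold threshold. Scaling to equal totals shifted the median of all genes by −0.18 with JQ1 and −0.10 with I-BET 762 on the log2 scale. The member median with JQ1 was then −2.22, and −2.10 with equal upper quartiles. With I-BET 762 it was −1.92 with equal totals, −1.88 with all genes above 0 and −1.76 with genes of mean at least 100. Between the inhibitors it was −0.38 with equal totals. The filter alternatives change which members enter the median. Fold thresholds aside, 3 of the 44 members lost their call between the inhibitors under at least 1 alternative (PARP9, RSAD2 and IFI6) and 5 gained it (OAS1, OAS3, MX2, ISG15 and DTX3L). The adjusted p of IFI6 was 0.0544 to 0.153 where its call was lost. No paired analysis was possible because the replicate numbers, 13 to 24, are all different between groups. Depth limits RTP4 and MX2, whose JQ1 libraries held few reads.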
